A study of Mus musculus with 2 samples.

Results

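Oligodendrocyte precursors are the dividing glial cells that give rise to the myelin-forming oligodendrocytes. They were taken here from the forebrain of newborn mice by the transcripts they carried. A cell counted as a precursor when it held 2 or more unique molecular identifiers (UMIs, each 1 counted RNA molecule) of Pdgfra and at least 1 UMI of Olig1, Olig2 or Sox10. It also had to hold 0 UMIs of Col1a1 and Col3a1, which mark fibroblasts, of Neurod6, which marks excitatory neurons, and of Gad2, which marks GABAergic neurons. Of 37116 kept cells, those with 1000 or more UMIs and under 10% mitochondrial UMIs, 796 met this rule: 249 of 10938 in the wild-type library and 547 of 26178 in the Gmnc-/- library.

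Both libraries came from C57BL/6J mice at postnatal day 0, and each pooled 4 animals from 2 litters, the wild-type animals being littermates of those without Gmnc. The dissected tissue was lateral and dorsal cortex with hippocampus from both sides of the brain, and single cells were counted by their 3-prime RNA ends on a droplet instrument. Gmnc, also called GemC1, switches on the programme of multiciliated cells. The labels do not give the deleted part of the gene or tie a cell to its animal, and with 1 library per genotype every difference below is between these 2 libraries and has no replicate check.

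Precursors respond to platelet-derived growth factor through the receptor encoded by Pdgfra, which keeps them dividing, and the transcription factors Olig1, Olig2 and Sox10 set their fate. In the newborn cortex many arrive from ventral progenitor zones, while others arise locally from glial progenitors that carry Egfr. Those that stop dividing and commit to becoming oligodendrocytes pass through a state marked by Gpr17 before myelin genes come on.

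The 2 libraries differed in ways that touch these cells. The wild-type precursors held 2017501 UMIs in all, with a median of 7194 a cell (1285 to 60525), and the knockout precursors 3642260, with a median of 5903 (1147 to 26173). Their median mitochondrial share was 3.30% and 1.19%. Scrublet, which scores barcodes against simulated pairs of cells, called 7 wild-type precursors (2.81%) and 115 knockout precursors (21.0%) doublets. Over all kept cells it called 4.21% (8.75% expected) and 20.4% (20.9% expected). Leaving called doublets out thus removes mostly knockout cells. Many differences between the libraries are also given without them. Contrasts of cycling or Gpr17-positive cells with other precursors, and of the libraries within cycling precursors, include them. Cells of female pattern, in which Xist was seen without any Y-linked transcript, made up 72.3% of wild-type and 44.2% of knockout precursors, and cells of male pattern, the reverse, 18.1% and 29.3%. The libraries shared 85 barcodes among all deposited barcodes and 0 among precursors. Sex pattern, depth, doublet rate and genotype cannot be told apart between 2 libraries.

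A single wild-type precursor stood apart. It held 60525 UMIs, of which 22194 were Ttr, the transthyretin transcript of the choroid plexus, and it had 7 UMIs of Pdgfra, 1 of Sox10 and 0 of Olig1, Olig2, Cspg4 and Lhfpl3. It met the rule and was not called a doublet, but its leading genes go against the name precursor. For named genes with most of their UMIs in 1 cell, values without that cell are given below. Counts of genes and sums over lists that take all precursors include the cell rich in Ttr.

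Pdgfra encodes the receptor for platelet-derived growth factor A and lies on chromosome 5 from 75152292 to 75198215 of mm10, on the forward strand. The rule asked for 2 UMIs, and the precursors held a median of 5 (wild-type) and 4 (knockout), with the highest cell at 38 and 26. Summed over precursors and scaled to counts per 1000000 UMIs (CPM), Pdgfra stood at 805 (95% interval 766 to 845) in wild-type cells; knockout cells gave 805 (776 to 834). The intervals, here and below, cover counting error only. In excitatory neurons of the same libraries, those with 2 or more UMIs of Neurod6 and none of Gad2, Pdgfra was at 7.89 and 16.7 CPM, and all other kept cells together gave 19.1 and 25.8. Lhfpl3, which encodes a tetraspan membrane protein and lies on the same chromosome from 22746059 to 23275597, was not used by the rule and was among the strongest genes of the precursors. It was at 2336 CPM in wild-type and 2680 CPM in knockout precursors, against 48.1 and 68.3 in excitatory neurons.

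The 250 bases before the start of the gene that chose the cells and of the gene that led them over all other cells are shown from RefSeq on GRCm38.p6, the assembly behind mm10, at chr5:75152001-75152250 and chr5:22745804-22746053, both on the forward strand. Capitals mark CANNTG, the E-box, a motif that basic helix-loop-helix proteins such as the Olig factors can bind and that reads as CANNTG on both strands.
Pdgfra: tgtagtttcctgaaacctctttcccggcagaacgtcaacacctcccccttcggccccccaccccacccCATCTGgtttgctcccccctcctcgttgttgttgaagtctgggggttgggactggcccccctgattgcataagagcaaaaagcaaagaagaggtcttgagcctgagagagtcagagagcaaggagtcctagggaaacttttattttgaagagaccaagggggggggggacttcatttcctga
Lhfpl3: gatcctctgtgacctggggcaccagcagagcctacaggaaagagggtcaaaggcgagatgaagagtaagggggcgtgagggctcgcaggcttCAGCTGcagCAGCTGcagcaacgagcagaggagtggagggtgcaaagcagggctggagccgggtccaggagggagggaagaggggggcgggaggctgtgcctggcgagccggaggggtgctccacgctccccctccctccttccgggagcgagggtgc
The Pdgfra window held 1 E-box and the Lhfpl3 window 2, both CAGCTG, while the windows of Olig2 and Cspg4 held 0. Neither held ACAAAG, a Sox-type motif searched on both strands. Of 32851 windows of the same length in the table, 66.2% held an E-box and 16.5% held ACAAAG, and of 12 windows of 8 leading genes 5 held an E-box (41.7%) and 0 held ACAAAG. Among the genes that led the precursors over other cells and the markers, 10 of 19 were found in the table.

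Of the lineage markers, Olig1, Olig2 and Sox10 helped choose the cells, so their values are a description, and Cspg4 alone checks the name. All 3 of Olig1, Olig2 and Sox10 were seen in 151 of 249 wild-type precursors (60.6%) and 323 of 547 knockout precursors (59.0%), although 1 was enough. Olig1, a helix-loop-helix factor of the lineage, was at 952 CPM (910 to 996) and 932 CPM (900 to 963), with a median of 6 UMIs a cell in both libraries. Sox10, which switches on precursor and myelin genes, was at 248 and 255 CPM, and in excitatory neurons at 3.91 and 6.45. Cspg4, the marker outside the rule, encodes the NG2 proteoglycan on the precursor surface. Of wild-type precursors 53.0% held a UMI of it, of knockout precursors 60.3%, and of excitatory neurons 0.938% and 2.60%, whose median depth was 7434 and 5695 UMIs. After each cell was thinned to 2000 UMIs the shares were 28.8% and 33.8% in precursors and 0.242% and 0.865% in excitatory neurons, so the Cspg4 signal in precursors lay far above the background of free RNA.

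**Figure D1:**
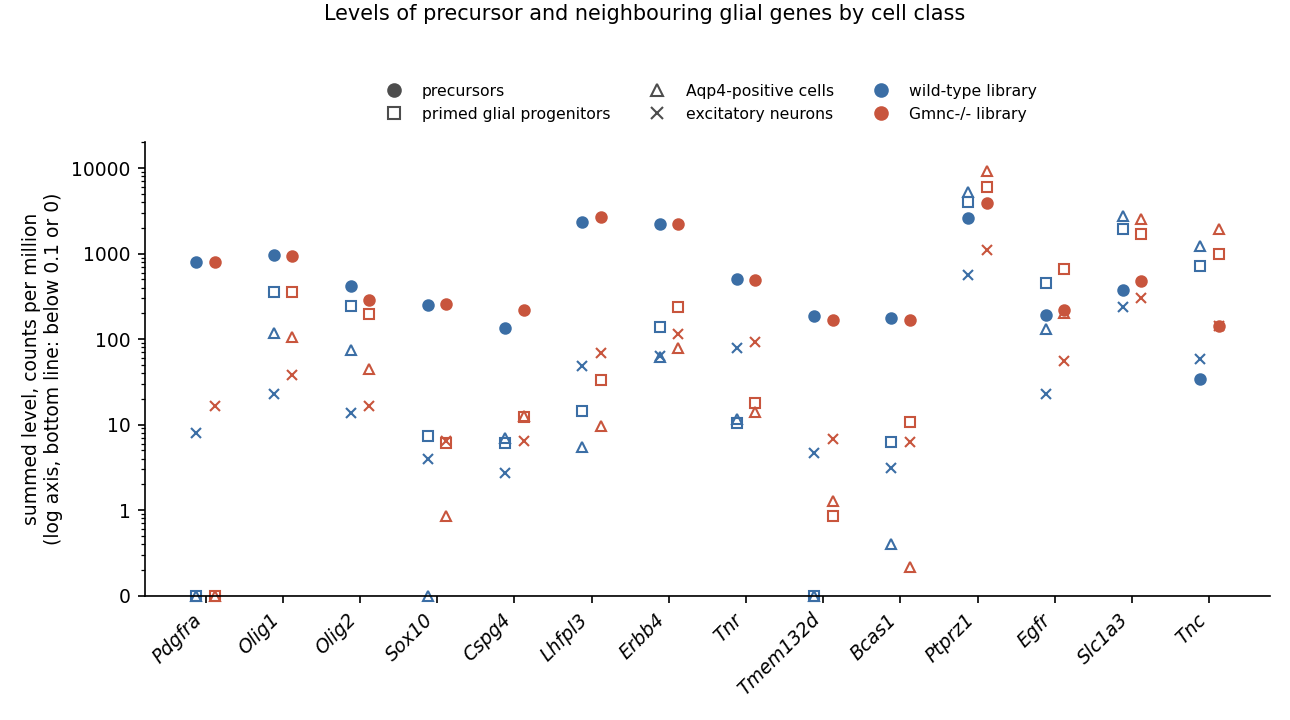
Summed level in CPM (log axis, with 0 on the bottom line) of precursor and neighbouring glial genes in 4 cell classes of the wild-type (blue) and Gmnc-/- (red) libraries. Filled circles are the precursors: they stand highest for Lhfpl3, at 2336 and 2680 CPM, and for Sox10, Cspg4, Tnr, Tmem132d and Bcas1, and below the glial progenitors and Aqp4-positive cells for Ptprz1, Slc1a3 and Tnc.

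Near the edge of the rule the profile weakened by degrees. Cells with exactly 2 Pdgfra UMIs, the last inside, numbered 33 and 103 and held 1259 and 1727 CPM of Lhfpl3. Cells with 1 Pdgfra UMI that met the rest of the rule, the first outside, numbered 53 and 186 and held 325 and 780 CPM. Their summed level of the precursor genes outside the rule was 5298 and 7782 CPM, against 7529 and 9842 in the cells with 2 UMIs and 12443 and 15260 in those with 6 or more. Excitatory neurons had 1515 and 2287, so the cells left out at 1 UMI lay between. Ptprz1 made up 2938 and 3932 CPM of the sum in the cells with 1 UMI. It went the other way at this edge, with 2097 and 3339 CPM in the cells with 2 UMIs. Another 136 wild-type and 471 knockout cells had enough Pdgfra and a lineage gene but also a UMI of an excluded gene, and 19.9% and 63.1% of these were called doublets. Those with only 1 such UMI (74 and 178 cells) were called doublets in 13.5% and 38.2%. Their summed level of the precursor genes outside the rule was 9550 and 10914 CPM.

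The precursors were set beside the 2 groups of glial cells most like them. Primed glial progenitors held Olig1 or Olig2 with Egfr and no Pdgfra (609 wild-type and 1192 knockout cells), and Aqp4-positive cells held 2 or more UMIs of the astrocyte water channel gene and no Pdgfra (422 and 581 cells, of which 158 and 183 were also primed progenitors). The rule chose the cells by their genes, so these values are descriptions with no test. Values below are log2 ratios within each library, with 5 CPM added to both sides, and a count takes genes past 2-fold in the same direction in both libraries among those that reached 50 CPM.

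Against primed progenitors, 262 of 4304 genes were higher in precursors (6.09%) and 211 lower (4.9%). Of the 18 identity genes that chose no cells and could be compared, 12 were among the higher. The widest margins were Lhfpl3 (log2 6.91 and 6.13, wild-type first as in all such pairs), Tmem132d (5.25 and 4.86), Tnr, the matrix protein tenascin-R (5.04 and 4.45), Csmd3 (5.05 and 4.29) and Col19a1 (4.26 and 4.29). Tmem132d was at 185 and 166 CPM in precursors and at 0 and 0.858 in the progenitors. Receptors and channels for neurotransmitters were also high in the precursors, with 13 of 20 past 2-fold: Kcnd2, an A-type potassium channel, reached 2059 and 2330 CPM, and the AMPA receptor genes Gria3 and Gria4 were higher by log2 2.33 and 2.28 (Gria3) and 2.52 and 2.03 (Gria4). Precursors are known to receive synapses from neurons.

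The genes that the precursors lacked were those of astroglia. All 11 astrocyte genes compared were past 2-fold lower than in primed progenitors, with a median of log2 -2.20, and 7 of 10 radial glia genes were lower. Slc4a4, a bicarbonate transporter, was at 24.8 and 58.2 CPM in precursors and 394 and 451 in progenitors. Tnc, the matrix protein tenascin-C, was at 33.7 and 142 CPM against 712 and 997. Grm3, Aldh1l1 and Slc6a11 were the other genes with the widest margins, at log2 -3.31 and -2.78, -3.81 and -2.75, and -3.47 and -2.71. The 11 G2/M genes compared were all lower in precursors as well, though none by 2-fold in both libraries (median log2 -0.81).

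Against Aqp4-positive cells the picture was alike and wider: 337 of 4365 genes were higher (7.72%) and 393 lower (9%). Of 18 identity genes, 13 were higher and 1 was lower, and all 12 astrocyte genes were lower, with a median of log2 -3.09. Bcas1, which marks early committed oligodendrocytes, was at 177 and 169 CPM in precursors and at 0.405 and 0.215 in Aqp4-positive cells (log2 5.07 and 5.06). Erbb4, a neuregulin receptor, was at 2208 and 2219 CPM against 61.1 and 78.4 (log2 5.07 and 4.74). Lhfpl3 (log2 7.81 and 7.52), Csmd3 (5.14 and 4.92) and Tmem132d (5.25 and 4.76) again led. The lowest were Tnc (log2 -4.99 and -3.73), Slc4a4, Aldh1l1, the lipase gene Pla2g7 and the glutathione transferase gene Gstm1. Ptprz1, a receptor phosphatase often used as a precursor marker, was higher in both neighbours than in the precursors: it stood at 2610 and 3932 CPM in precursors, 3987 and 6016 in primed progenitors and 5234 and 9145 in Aqp4-positive cells.

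Over all other kept cells, 226 of 4197 genes were higher in precursors (5.38%) and 196 lower (4.67%). The 15 leading genes were Lhfpl3, Brinp3, Cspg4, Tmem132d, Bcas1, Prkcq, C1ql1, Pstpip2, Col19a1, Pcdh11x, Shc4, Plpp4, Cntn1, Stk32a and Gpr17. Among them, Cntn1 is the adhesion protein contactin-1, and C1ql1 a secreted C1q-like protein. Both libraries gave each of them a margin of over log2 3, from 3.10 for Gpr17 in the wild-type library to 5.47 for Lhfpl3.

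By this rule precursors took a like share of the cells in the 2 libraries. They were 2.28% (2.01% to 2.57%) of kept wild-type cells and 2.09% (1.92% to 2.27%) of kept knockout cells, a ratio of 0.918 (0.791 to 1.06). The ratio was 0.898 (0.768 to 1.05) without called doublets, 0.848 (0.701 to 1.03) in female-pattern and 0.913 (0.659 to 1.27) in male-pattern cells. Because a shallow cell is less likely to show 2 Pdgfra UMIs, each cell was also thinned to 2000 UMIs before the rule was applied, which left 1.48% and 1.39% and a ratio of 0.943 (0.772 to 1.15). Each interval given here held 1, and so none showed a difference beyond counting error. The excluded genes had left out another 136 wild-type and 471 knockout cells that met the rest of the rule. No alternative kept these cells, so the dependence of the ratio on that part of the rule was not tested. Primed progenitors, at 5.57% and 4.55%, had a ratio of 0.818 (0.744 to 0.899).

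Between knockout and wild-type precursors few genes differed by 2-fold. Of 4526 genes that reached 50 CPM in at least 1 library, 37 were 2-fold or more higher in the knockout precursors (0.817%) and 39 lower (0.862%). At these shares a short list is likely to hold 0 such genes, so a count of 0 in a list below does not set that list apart. Of all genes tested, 64.4% lay above 0, with a median log2 ratio of 0.13. Scaling by the median of ratios in place of totals shifted all genes by 0.148 and gave 17 higher and 64 lower. Without called doublets 19 of 4482 genes were higher (0.424%) and 41 lower (0.915%). With the cell that held most UMIs of each gene left out, 36 of the 37 higher and 30 of the 39 lower genes stayed past 2-fold.

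Of the 21 identity genes that the rule did not use, 19 could be compared and 0 passed 2-fold in either direction. Of these, 12 lay above and 7 below 0, with a median of log2 0.05 beside 0.13 for all genes. Without called doublets 15 lay above and 4 below 0, and the median was 0.21. Pcdh15, a cadherin, gave log2 0.06, Sox6, a factor of the lineage, 0.06 and Tnr -0.02, and without called doublets these 3 gave 0.21, 0.22 and 0.21. The genes that chose the cells gave -0.00 (Pdgfra), 0.04 (Sox10) and -0.03 (Olig1), and 0.22, 0.28 and 0.19 without called doublets, which is a description of the selection. The extremes were Cspg4 and Matn4. Cspg4 was at 134 CPM (118 to 151) in wild-type and 221 (206 to 237) in knockout precursors, a ratio of 1.65 (1.44 to 1.90) that was log2 0.70 on the scale with 5 CPM added, 0.96 without called doublets and 0.81 and 0.72 in female-pattern and male-pattern cells. Matn4, a matrix protein gene, was at 68.4 and 44.2 CPM (log2 -0.58).

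Among the transcription factors of the lineage, 3 of which chose the cells, 0 of the 21 compared passed 2-fold (median log2 0.06). Olig2, 1 of those 3, on chromosome 16 from 91225457 to 91228677, stood lowest at 419 CPM (392 to 449) and 290 CPM (273 to 308), a ratio of 0.69 (0.63 to 0.76). Its log2 ratio of -0.52 became -0.29 without called doublets, and in all other kept cells it was -0.31. Median UMIs of Olig2 were 2 a cell in both libraries. The highest of this list were Nfix (306 and 470 CPM, log2 0.61), Sox11 (455 and 674 CPM, 0.56), a factor of immature neurons and progenitors, Sox2 (268 and 369 CPM, 0.46), a factor of neural progenitors, and Myt1 (180 and 244 CPM, 0.43), a zinc finger factor. In all other kept cells these 4 gave 0.59, 0.45, 0.36 and 0.82.

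In the growth factor list 0 of 15 genes passed 2-fold, with a median of log2 0.15. Beside this and the counts that follow, 0.817% of all 4526 genes were higher and 0.862% lower. Egfr (192 and 219 CPM), Erbb4 (2208 and 2219), the insulin-like growth factor receptor gene Igf1r (298 and 288) and the neurotrophin receptor gene Ntrk3 (271 and 325) differed by log2 0.26 or less in size. Spry2, a feedback inhibitor of receptor tyrosine kinases, was lowest, at 127 and 76.1 CPM (log2 -0.71, and -0.53 in all other kept cells). Of 8 Notch genes, 0 passed 2-fold: Dll1 and Dll3, ligands of the pathway, were at 69.9 and 68.1 CPM and at 92.7 and 82.4 CPM, and the target Hes5 at 271 and 210. Of 20 receptor and channel genes, 0 passed 2-fold, and 18 lay above 0 (median log2 0.17), where in all other kept cells 20 of 20 lay above 0 (median 0.50). The Wnt and BMP list gave 0 of 9 past 2-fold.

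Of 20 committed-precursor genes 11 reached 50 CPM, among them Bcas1 (177 and 169 CPM) and the kinase gene Fyn (412 and 504 CPM), while several late genes were near 0. Enpp6, Mobp and Opalin had 0 UMIs in the precursors, Mog, a late myelin glycoprotein, had 2 and 5, and Bmp4, an early sign of commitment, had 3 and 2. Mbp, the main protein of compact myelin, gave 43 and 101 UMIs, or 21.3 and 27.7 CPM. Of the 11 committed-precursor genes compared, 0 passed 2-fold (median log2 0.09). Frmd4a came closest, at 98.6 and 199 CPM (log2 0.98), and was at 84.2 and 95.2 CPM without called doublets (log2 0.17). Of 6 myelin genes 0 passed 2-fold, and the lowest was Cd9, a tetraspanin, at 283 and 158 CPM (log2 -0.82).

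Axon guidance and matrix genes held 3 of the genes that passed 2-fold, and these moved with the doublet calls. In guidance, Nrp1, a semaphorin co-receptor, and Robo2, a Slit receptor, passed among 15 genes (median log2 0.33). They stood at 17.8 and 55.0 CPM in wild-type and 51.9 and 140 CPM in knockout precursors (log2 1.32 and 1.27). Without called doublets 0 of 11 guidance genes passed, Nrp1 gave 0.57 and Robo2 -0.02. Among 26 matrix and adhesion genes only Tnc passed. It was seen in 17 of 249 wild-type precursors (6.83%) and 80 of 547 knockout precursors (14.6%), at 33.7 and 142 CPM, a ratio of 4.20 (3.26 to 5.50) and a log2 ratio of 1.92. The value was 1.04 without called doublets, 1.97 and 3.14 by sex pattern, and 0.46 in all other kept cells.

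Genes of other cell types also differed between the precursors of the 2 libraries, and their part in these results was not tested. The 14 astrocyte genes summed to 762 CPM in wild-type and 1253 CPM in knockout precursors, and to 732 and 913 without called doublets, with Agt at 0 in wild-type cells. Of the 6 that could be compared all lay above 0 and 2 passed 2-fold, Sparcl1 (56.0 and 161 CPM) and Slc4a4. Without called doublets 0 of 5 passed and 1 lay below 0, with Sparcl1 at log2 0.94 and Slc4a4 at 0.40. The 11 microglial genes summed to 43.1 and 347 CPM, and to 43.7 and 61.1 without called doublets. A single knockout cell held 565 of the 1265 microglial UMIs, and 6 of the 7 knockout precursors with 10 or more such UMIs were called doublets. Excitatory neuron genes went from 74.3 to 142 CPM (63.7 and 72.2 without called doublets), with Neurod6 at 0 by the rule, and GABAergic genes from 153 to 216 (155 and 183). Erythroid genes summed to 834 and 2701 CPM, and to 858 and 1959 without called doublets. Of these UMIs, 1 wild-type cell held 1199 of 1682, and 1 knockout cell, a called doublet, held 2725 of 9839. Only 3 wild-type and 7 knockout precursors held 10 or more. Other lists were lower in knockout precursors. Radial glia genes summed to 5294 and 4251 CPM (5205 and 3819 without called doublets), of which Fabp7, a fatty acid binding protein gene, made up 2726 and 1719. Fibroblast genes summed to 53.5 and 21.1 CPM (51.9 and 19.4) and choroid plexus genes to 11102 and 7.69. Both wild-type sums rested largely on the cell rich in Ttr. It held 70 of the 108 wild-type fibroblast UMIs and 22339 of the 22398 wild-type choroid plexus UMIs. These lists were lower in all other knockout cells too: radial glia at 7982 and 4341 CPM, fibroblast at 676 and 307, choroid plexus at 371 and 165. Among the lists higher in knockout precursors, astrocyte, excitatory and GABAergic genes were higher in those cells too. Microglial genes (1631 and 776 CPM) and erythroid genes (22314 and 16181) were lower there.

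The 10 highest and 10 lowest ratios, taken after leaving out haemoglobin, mitochondrial, ribosomal protein, sex-linked and predicted genes, were followed 1 by 1, and several rested on a single cell. Ttr was lowest at log2 -10.38, Folr1, a folate receptor, at -3.69, and the serotonin receptor gene Htr2c at -3.33. Of their 22213, 120 and 142 wild-type UMIs, 22194, 118 and 141 lay in 1 cell, and the values without the cell that held most were -0.87, -0.27 and 0.15. Trpm3, an ion channel gene, gave -1.42 and 0.09 without its top cell, which held 286 of 399 UMIs. Chchd10, a mitochondrial protein gene, kept its direction at -2.34 and -1.16. On the higher side Spp1, the osteopontin gene of macrophages, gave 3.28, with 329 of its 334 knockout UMIs in 1 cell, and -0.49 without it. C1qb, a complement gene of microglia, gave 2.29, and 0.35 without called doublets.

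Filip1l and Cplx2 were spread over many precursors and stayed past 2-fold without called doublets, in each sex pattern, in cycling and other precursors and without the top cell. Filip1l, a filamin-interacting protein gene, was seen in 38 wild-type precursors (15.3%) and 250 knockout precursors (45.7%). Its level was 21.8 CPM (15.9 to 29.3) and 106 CPM (95.7 to 117), a log2 ratio of 2.05 that was 2.06 without called doublets. In all other kept cells the gene gave log2 1.59, so the gene was higher there as well. Cplx2, a complexin of synaptic vesicle release, was at 8.43 CPM (4.91 to 13.5) and 54.6 CPM (47.3 to 62.8), in 6.83% and 23.9% of precursors (log2 2.15, 1.85 without called doublets and 1.07 in other cells). Slco1c1, a thyroid hormone transporter (log2 1.76), and Tenm4, a teneurin (1.58), gave 0.15 and 0.18 without called doublets, so they did not stay apart.

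Among the lower named genes, replication histones and a small RNA host were spread over many precursors. Hist1h2ap was at 193 CPM (175 to 213) in 42 wild-type precursors and 40.4 CPM (34.1 to 47.4) in 59 knockout precursors, a log2 ratio of -2.13 in precursors and -2.13 in all other kept cells. Hist1h2ab (-1.62), Hist1h2ae (-1.51) and Hist1h4h (-1.37) went the same way, and these near-identical genes may share reads. Snhg6, which hosts a small nucleolar RNA, had a UMI in 96 wild-type precursors (38.6%) and 76 knockout precursors (13.9%), at 70.4 CPM (59.3 to 83.0) and 22.8 CPM (18.2 to 28.3), or log2 -1.44, and -1.11 in other cells.

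**Figure D2:**
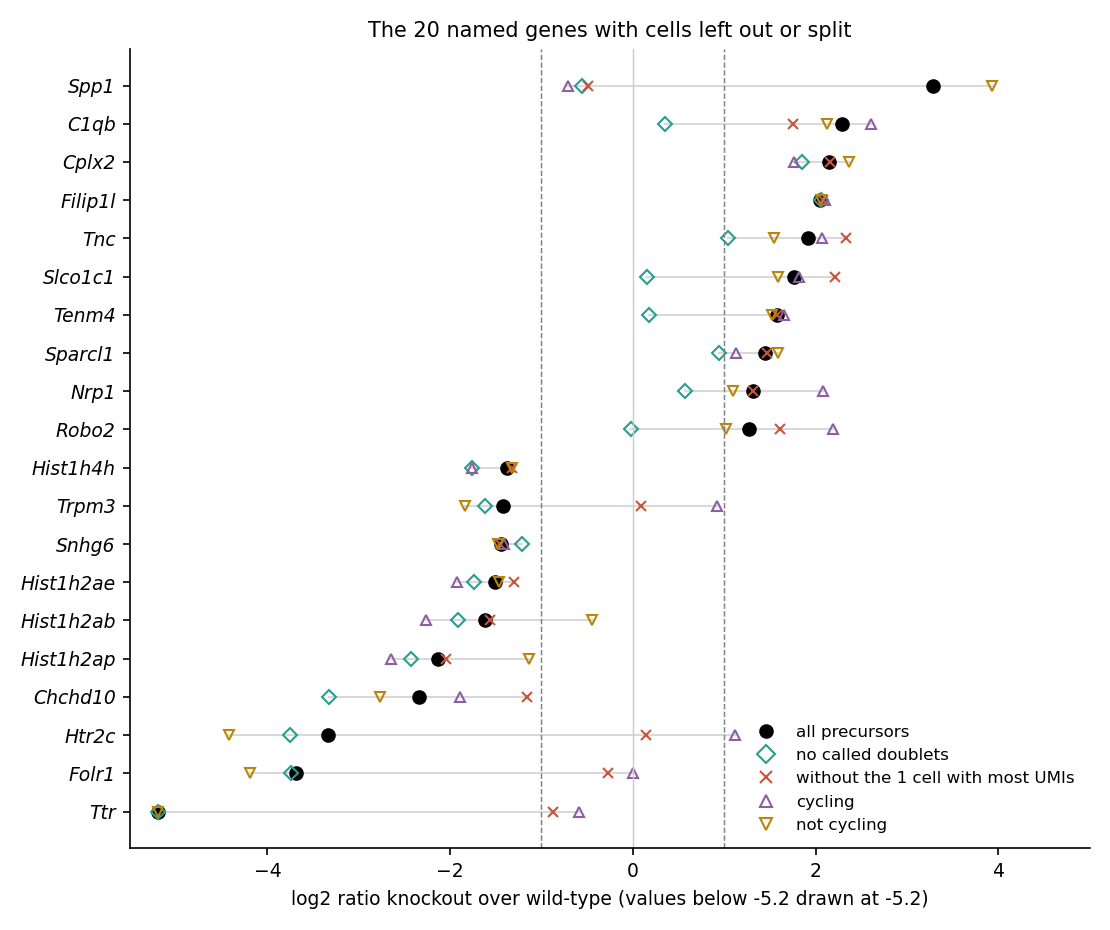
Log2 ratio of knockout over wild-type for the 20 named genes in all precursors (black) and with cells left out or split by cycling. Dashed lines mark 2-fold. Filip1l, at 2.05 in all precursors and 2.06 without called doublets, and Snhg6 stay past 2-fold in each reading, while Spp1, Htr2c and Trpm3 cross 0 when 1 cell is left out.

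Many genes that differed between the precursors of the 2 libraries differed in the rest of their cells too. Across 4526 genes, the log2 ratio in precursors and that in all other kept cells had a Spearman correlation of 0.771, a description across genes that share the same 2 libraries. Of the 39 lower genes, 38 had the same sign and 27 were past 2-fold in the other cells too; of the 37 higher genes the numbers were 29 and 5. In all 6 readings of the precursors (no called doublets, each sex pattern, cycling, not cycling, without the top cell) 6 of the higher and 11 of the lower genes stayed past 2-fold. Of the 39 lower genes 9 were mitochondrial, and 5 of these were among the 11, led by mt-Nd3 (945 and 265 CPM, log2 -1.82, and -1.81 in other cells). The others of the 11 were Hist1h2ap, Hist1h2ae, Snhg6, Cdk8 (529 and 216 CPM, log2 -1.27), a kinase of the Mediator complex, Ost4 (-1.10) and Pfdn4 (-1.08). Of the 37 higher genes 4 were haemoglobin genes, and 2 of these, Hba-a2 (2.26) and Hbb-bt (1.77), were among the 6, with Filip1l, Cplx2, Tnc and Paxbp1 (1.05). The mitochondrial and haemoglobin genes, Cdk8, Ost4, Pfdn4 and Paxbp1 lie outside the rule for named genes and were chosen after their values were seen. The median mitochondrial share of the cells was 3.30% and 1.19%, and the part of mitochondrial and erythroid RNA in the other differences was not tested. Ratios also moved with gene length: the Spearman correlation with gene span was 0.373 in precursors and 0.547 in other cells, and the shortest 25% of genes had a median of log2 -0.17 and the longest 25% a median of 0.21. The part of gene length in these results was not tested.

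**Figure D3:**
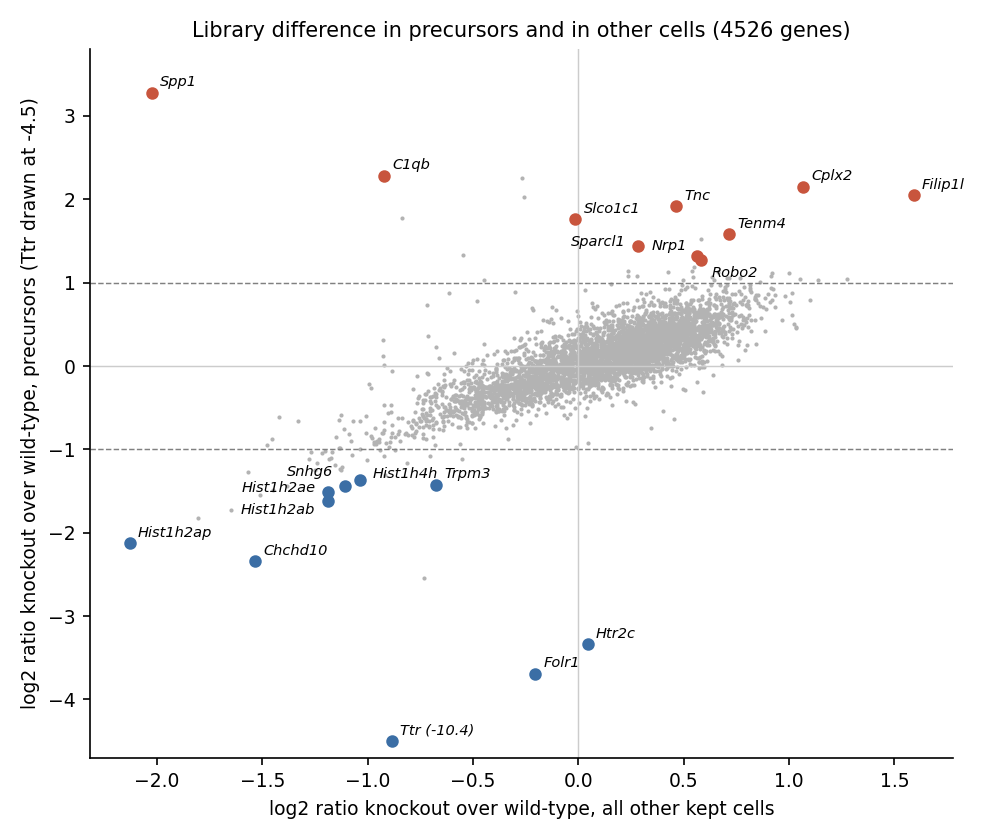
Log2 ratio of knockout over wild-type in precursors against the same ratio in all other kept cells, 1 point per gene (4526 genes), with the 20 named genes in colour and 2-fold in precursors dashed. Most points follow a rising band, and Spp1, C1qb, Ttr, Folr1 and Htr2c lie off it.

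Cycling precursors, those with UMIs of 2 or more of 12 G2/M genes, were more frequent in the knockout library, and less clearly so once called doublets were left out. Of 249 wild-type precursors 51 cycled (20.5%, 15.6% to 26.0%), and of 547 knockout precursors 180 (32.9%, 29.0% to 37.0%). After thinning to 2000 UMIs, which left out 13 and 23 shallower precursors, the shares were 14.8% (10.6% to 20.02%) and 22.9% (19.4% to 26.7%), a ratio of 1.54 (1.09 to 2.18). Leaving out called doublets as well gave 15.3% and 17.5%, a ratio of 1.14 (0.790 to 1.66). Of the cycling precursors, 3 of 51 wild-type (5.88%) and 66 of 180 knockout cells (36.7%) were called doublets, against 2.02% and 13.4% of the other precursors.

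The size of the ratio moved with the definition. It was 1.56 (0.990 to 2.45) in female-pattern and 2.31 (0.973 to 5.50) in male-pattern precursors, where 5 of 44 wild-type cells cycled. With 4 or more G2/M genes it was 1.32 (0.875 to 1.98), with 2 or more S phase genes 1.28 (0.956 to 1.72), and with a UMI of Mki67 or Top2a 1.35 (0.996 to 1.83). All 5 ratios were above 1, and all 5 intervals held 1. Excitatory neurons, which do not divide, gave 3.93% and 8.18% after thinning, a ratio of 2.08 (1.60 to 2.70), so neurons past the same threshold were also more frequent in the knockout library. Primed progenitors gave 37.0% and 43.7% (1.18) and Aqp4-positive cells 14.7% and 16.2% (1.10). Many cells lay near the threshold: 63 wild-type and 105 knockout precursors held exactly 1 of the 12 genes, and 12 and 43 exactly 2, while 16 and 18 held all 12.

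**Figure D4:**
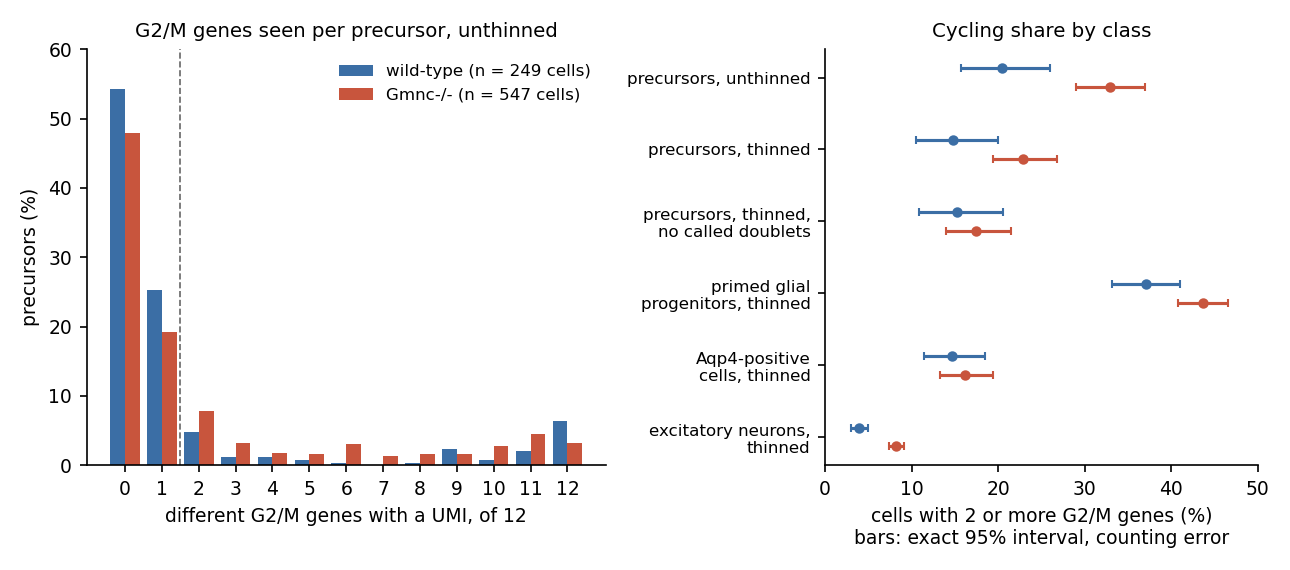
Left, share of precursors by the number of G2/M genes with a UMI (unthinned, 249 wild-type cells in blue and 547 Gmnc-/- cells in red), with the threshold dashed. Right, share with 2 or more such genes in precursors and neighbouring classes, with exact 95% intervals for counting error: precursors go from 14.8% to 22.9% after thinning and from 15.3% to 17.5% once called doublets are left out.

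In both libraries the cycling precursors held more of the S phase genes and less of the identity genes that the rule did not use. Cells were chosen by G2/M genes, so that list is left out here, and a value in a count over both libraries is the ratio nearer to 0, or 0 where the libraries differ in direction. Of 4168 genes, 150 were 2-fold or more higher in cycling than in other precursors (3.6%) and 3 lower (0.072%). Of 12 S phase genes compared, 11 passed, with a median of log2 1.74. Rrm2, a subunit of the enzyme that makes deoxynucleotides, was higher by 3.37 and 3.24, Clspn, a replication checkpoint protein, by 3.03 and 3.23, and Tyms, thymidylate synthase, by 2.40 and 2.43. The helicase gene Mcm7 (0.98 and 0.91) fell short. The widest margins among all genes were mitotic: Cdca8 (4.98 and 4.54), Hmmr (4.89 and 4.48), Kif4 (4.44 and 4.87), Cdca3 (4.68 and 4.29), Casc5 (5.14 and 4.28), Ccnb1 (4.92 and 4.25) and Cenpa (4.68 and 4.21).

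Of the identity genes outside the rule, all 19 compared lay below 0 in cycling precursors, with a median of log2 -0.38 beside 0.00 for all genes. Lhfpl3 was at 1483 CPM in cycling and 2718 in other wild-type precursors, and at 1965 and 3200 in the knockout library. Pcdh15 was at 714 against 1284 CPM and at 865 against 1369. Pdgfra, at 585 against 903 CPM and at 654 against 915, is a description only, since the rule asked for the same 2 UMIs of deeper and shallower cells. The identity genes outside the rule also went with Pdgfra UMIs. They summed to 7529 and 9842 CPM in precursors with exactly 2, and to 12443 and 15260 in those with 6 or more. The part of the rule, of depth and of called doublets in their lower levels was not tested. The 3 genes past 2-fold lower were C1ql1 (log2 -1.44 and -1.17), the clusterin gene Clu (-1.28 and -1.16) and Tcp11l2 (-1.54 and -1.06), and the next were Rgs17, Chgb, Bcas1, Kcnh8 and Asic2, at -0.86 to -1.38. Matrix genes (21 of 26, median log2 -0.35) and receptor and channel genes (14 of 19, median -0.24) also mostly lay below 0. Some lineage factors went the other way, short of 2-fold: Nfia and Nfib, factors of early gliogenesis, were higher by about log2 0.5 (Nfia 0.51 and 0.48, Nfib 0.53 and 0.52). Pax6, a radial glia factor, passed 2-fold higher (2.35 and 1.38). Cycling precursors were deeper, with medians of 11966 and 7497 UMIs against 6486 and 5304, and held more called doublets, as above.

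**Figure D5:**
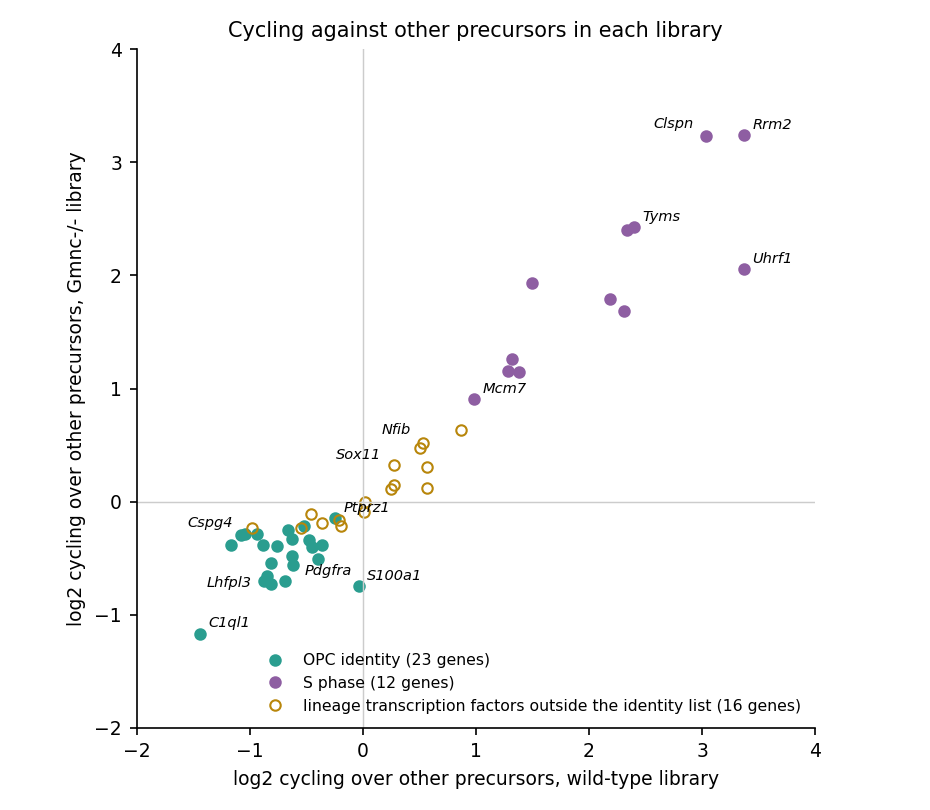
Log2 ratio of cycling over other precursors in the wild-type library (horizontal) and the Gmnc-/- library (vertical), 1 point per gene for the identity, S phase and lineage factor lists. Identity genes (4 of the 23 chose the cells) lie below 0 in both libraries, S phase genes above 0, from 0.98 and 0.91 for Mcm7 to 3.37 and 3.24 for Rrm2, and lineage factors on both sides.

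The genotypes were also compared within cycling and within other precursors. In cycling precursors 120 of 4732 genes were 2-fold or more higher in the knockout library (2.54%) and 66 lower (1.39%), from sums of 51 and 180 cells, and 60% of the genes lay above 0. In the others 43 of 4464 were higher (0.963%) and 43 lower (0.963%). Called doublets made up 5.88% of the cycling wild-type and 36.7% of the cycling knockout precursors, and values without them are not given here. Identity genes outside the rule gave 2 of 18 higher and 0 lower in cycling cells, Cspg4 (75.4 and 196 CPM, log2 1.32) and Vcan, the versican gene (log2 1.01), with a median of log2 0.35. In the others they gave 0 of 19 in either direction, with a median of 0.04. Filip1l was higher in both (2.10 in cycling and 2.05 in other precursors), and Tnc too (2.07 and 1.54). Robo2 and Nrp1 gave 2.19 and 2.08 in cycling and 1.02 and 1.09 in other precursors. Erythroid genes gave a median of 4.36 in cycling precursors and 0.95 in the others, and the part of such RNA in these values was not tested. Among all precursors, only 3 wild-type and 7 knockout cells held 10 or more erythroid UMIs.

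Precursors with a Gpr17 UMI, a receptor of cells that begin to commit, were about as frequent in both libraries. After thinning they were 32 of 236 (13.6%) and 66 of 524 (12.6%), a ratio of 0.929 (0.627 to 1.38), and they were 0 of 602 and 0 of 1179 among primed progenitors (exact upper limits 0.611% and 0.312%) and 0.121% and 0.236% of excitatory neurons. Among cycling precursors, classed as such before thinning, they were 3 of 49 (6.12%) and 20 of 177 (11.3%), and among the others 15.5% and 13.3%. No precursor held more than 5 Gpr17 UMIs. Without thinning, 66 of 249 wild-type and 144 of 547 knockout precursors held a Gpr17 UMI, and genes were compared between these and the other precursors. In both libraries 26 of 4098 genes were 2-fold or more higher in the Gpr17-positive cells (0.634%) and 8 lower (0.195%).

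The Gpr17-positive cells held more of the identity genes that the rule did not use and less Egfr. Of 19 such genes 17 lay above 0, with a median of log2 0.69: Tnr was at 973 CPM against 363 in wild-type precursors, at 768 against 401 in knockout ones, and Tmem132d, outside that list, at 404 against 119 and 346 against 102. Egfr, the progenitor receptor, gave log2 -2.15 and -2.24, at 49.2 against 235 and 54.7 against 276 CPM. All 9 immediate early and stress genes compared lay below 0, and 1 of them, Btg2, passed 2-fold. Over all 4098 genes the median was 0.00 and 0.195% were 2-fold lower, and the share below 0 was not counted. Cells were classed by 1 Gpr17 UMI without thinning, and the depths of the classes were not compared.

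Gmnc and the genes that act with it were nearly silent in precursors. Gmnc gave 13 UMIs in wild-type and 2 in knockout precursors, and all 13 lay in the wild-type cell rich in Ttr. Since the deleted part is not given and a 3-prime tag may lie outside it, these counts check nothing about the labels. A second wild-type precursor held all 23 UMIs of Cdc20b and all 8 of Mcidas, 2 genes of the multiciliated programme, together with 12 of Foxj1. Unlike the first it carried 21 UMIs of Olig1, 7 of Sox10 and 14 of Lhfpl3. It had 8 of the 12 G2/M genes among its 24652 UMIs, and was not called a doublet. Knockout precursors held 0 UMIs of Mcidas, 2 of Cdc20b, 2 of Trp73 and 9 of Foxj1. Apart from Rfx3, at 173 and 152 CPM, none of the 11 programme genes looked up reached 50 CPM in either library.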

How the data were processed

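Single-cell RNA was counted in 2 libraries, 1 per genotype. The deposited files hold counts of UMIs per gene and barcode, made by the authors; the submitters' processing notes name Cell Ranger 7.1.0 and mm10. The sources used here name no filter, and the lowest total of a deposited barcode is 500 UMIs. Of 28001 features 27998 have Ensembl identifiers, and 27645 were matched to the GENCODE annotation of that build for coordinates. The kept cells held 85086833 wild-type and 154383820 knockout UMIs.

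Members and gene lists (27 lists) were chosen with earlier results of these data known. Counts were summed over cells per library and divided by the total to give CPM, and log2 ratios had 5 CPM added on each side, so ratios of low genes come out too small. A gene was compared when it reached 50 CPM in either library (in either class in both libraries, for comparisons within libraries) and was counted at 2-fold. No test was made, because each genotype has 1 library and its cells do not stand for replicates. Sums carry exact Poisson, shares exact Clopper-Pearson, gene ratios exact conditional and ratios of shares log-scale intervals, all at 95%. PCR duplicates are removed by UMI; intervals cover counting error only.

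Doublets were scored per library with Scrublet in scanpy 1.11.5, at an expected rate of 0.8% per 1000 kept cells: it called 4.21% (8.75% expected) and 20.4% (20.9% expected). They were kept, since the rule for precursors does not remove them, and left out as an alternative. For shares, cells were thinned to 2000 UMIs with a fixed seed. Cells with 20% or more haemoglobin UMIs served as a second background. NumPy 2.4.6, SciPy 1.17.1 and Matplotlib 3.10.9 were used, and the calculation was tested on simulated sums. There 69 of 69 genes changed 4-fold passed 2-fold, as did 22 of 63 changed 2-fold and 0 of 68 changed 1.5-fold. Of 3980 unchanged genes 0 passed. A gene not counted at 2-fold may therefore still differ by about that much. The simulated sums varied by counting error alone, with no doublets, single outlying cells or library differences. The 0 of 3980 thus does not cover genes that pass because of those.

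The named genes were the 10 highest and 10 lowest ratios between genotypes, 8 on each side for cycling, 5 on each side against each neighbouring class and 15 over all other cells, leaving out haemoglobin, mitochondrial, ribosomal protein, sex-linked and predicted genes, besides all genes of the lists; 2 genes are not reported here. The cell filter was also loosened (500 UMIs, 20% mitochondrial) and tightened (2000 UMIs, 5%), and the other alternatives were other member rules, each sex pattern, thinning, other scaling, a prior of 1 CPM and a minimum of 20 CPM; leaving out the top cell of a gene was added after seeing the data, as were 3 others.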

Additional observations from a re-analysis of the deposited data

Results flagged for a closer look

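Htr2c, the serotonin 2C receptor gene of the choroid plexus and some neurons, went in opposite directions in cycling and other precursors. The log2 ratio of knockout over wild-type was 1.12 in cycling precursors, where the levels were 0 and 5.86 CPM, and -4.42 in the others, where they were 102 and 0 CPM. The difference between these values was not tested, and 141 of the 142 wild-type UMIs lay in 1 cell.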

How the results depend on the processing

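No paired analysis was possible because each genotype has 1 library. The share of precursors among kept cells (ratio 0.918) ranged from 0.848 to 1.01 over 10 alternatives and the Gpr17-positive share (0.929) from 0.676 to 1.07 over 11. The ratio of cycling shares (1.54) ranged from 1.14 to 2.31 over 14, and the highest, 2.31, came from male-pattern cells. The 37 genes higher in knockout precursors became 19 without called doublets, 24 with 1 or more Pdgfra UMIs, 143 in male-pattern cells, 17 under median-of-ratios scaling, 89 with a minimum of 20 CPM, 120 in cycling precursors and 86 after thinning. The 39 lower genes became 64, 60 and 66 under median-of-ratios scaling, a minimum of 20 CPM and in cycling precursors. The 150 genes higher in cycling precursors became 295 with a minimum of 20 CPM, and the 3 lower became 12 in male-pattern cells, 5 with a prior of 1 CPM, 8 with a minimum of 20 CPM, 25 after thinning and 19 with 4 or more G2/M genes. The counts against primed progenitors (262) and Aqp4-positive cells (337) became 397 and 515 with a minimum of 20 CPM. The lower minimum brings in more genes, and other causes were not tested. Among named genes 373 values kept near their main value, 148 moved and 19 reversed. Spp1 reversed without called doublets (-0.56), with more genes of other lineages held at 0 (-0.71), in female-pattern cells (-0.91), in cycling precursors (-0.71) and without its top cell (-0.49). Robo2 gave -0.024 without called doublets and -0.24 with more genes of other lineages held at 0. Htr2c and Trpm3 gave 0.47 and 0.27 with 2 or more lineage genes, 0.25 and 0.079 with more genes of other lineages held at 0, 0.48 and 0.21 in male-pattern cells, 1.12 and 0.92 in cycling precursors and 0.15 and 0.094 without their top cell. Ttr gave 0.67 and Chchd10 0.039 in male-pattern cells. Leaving out the top cell was chosen after seeing the data. Depth limits the sums most in the 51 cycling wild-type precursors and the 45 of male pattern.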

Other observations

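The matrices also list features that are not mouse genes. Stop-Ai9, named as the stop cassette of a reporter allele, gave 1084 UMIs (537 CPM) in wild-type and 752 UMIs (206 CPM) in knockout precursors. Among knockout precursors it was at 36.1 CPM in cells of female pattern and 391 CPM in cells of male pattern. Tomato gave 57 and 38 UMIs and LacZ 0 in both libraries. The labels used here name no reporter allele.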
